A study of Mus musculus with 24 samples.

Results

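The genes described here encode the nuclear pore complex and the factors that carry messenger RNA through it, and their own RNA was measured in cell fractions of mouse embryonic stem cells. Members were the genes of both deposited tables whose symbol is Nup with a number or Thoc1 to Thoc7, plus Ranbp2, Tpr, Nxf1, Nxt1, Alyref, Xpo1, Ddx19a, Ddx39b, Rae1, Gle1 and Seh1l. This rule uses names only and found 37 of 29759 genes. The cells are of E14, an established mouse embryonic stem cell line, in 2 states. Epiblast-like cells (EpiLC) were harvested after differentiation to day 3 in N2B27 medium holding 20 ng/ml activin A with 12 ng/ml bFGF, and naive embryonic stem cells (nESC), from which they were made, were kept in N2B27 with LIF and with PD0325901 and CHIR99021, inhibitors of MEK and GSK3. Each state gave 3 libraries of each of 4 kinds of RNA, that of chromatin, of nucleoplasm, of cytoplasm and of unfractionated cells (total), so there are 8 groups and 24 libraries. All come from 1 cell line, and the labels do not say that replicates are separate cultures, so what the p-values capture is sample-to-sample spread that may be technical.

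A nuclear pore is built from nucleoporins in concentric layers. An outer ring (the Y complex) and an inner ring form the scaffold, membrane nucleoporins anchor it in the nuclear envelope, and nucleoporins with phenylalanine-glycine repeats fill the central channel. Filaments reach into the cytoplasm, and a basket of Tpr, Nup153 and Nup50 faces the nucleoplasm. A messenger RNA is bound during transcription by the TREX complex (the Thoc proteins, the helicase Ddx39b and the adaptor Alyref), is handed to the export receptor Nxf1 with its partner Nxt1, and is released on the cytoplasmic side by Gle1 and the helicase Ddx19a. Xpo1 exports proteins and some RNAs through the same pores.

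RefSeq promoter windows, from 250 bases before to 50 bases after a gene's start, were matched by symbol for 30 of the 37 genes in build GRCm38.p6. The 250 bases before the start are shown for Ranbp2 and Alyref, since these were the members with the lowest and the highest mean in cytoplasm in both states. Ranbp2 (chr10:58446602-58446851, plus strand) and Alyref (chr11:120598366-120598615, minus strand) are written 5′ to 3′, with motif matches in capitals.
Ranbp2: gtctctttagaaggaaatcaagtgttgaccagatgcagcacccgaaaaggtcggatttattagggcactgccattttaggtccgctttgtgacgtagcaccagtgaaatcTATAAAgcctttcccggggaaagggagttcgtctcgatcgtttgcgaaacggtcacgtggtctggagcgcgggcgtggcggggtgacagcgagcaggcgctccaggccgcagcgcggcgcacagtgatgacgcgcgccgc
Alyref: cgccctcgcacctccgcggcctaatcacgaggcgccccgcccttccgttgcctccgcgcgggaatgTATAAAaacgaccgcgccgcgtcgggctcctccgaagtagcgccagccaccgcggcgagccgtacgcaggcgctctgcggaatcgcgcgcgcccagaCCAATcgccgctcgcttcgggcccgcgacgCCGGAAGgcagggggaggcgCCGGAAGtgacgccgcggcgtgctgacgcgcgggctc
The capitals mark a TATA box (TATAAA) in Ranbp2, and in Alyref a TATA box, a CCAAT box (CCAAT) and a pair of ETS motifs (CCGGAAG). Both strands were searched, and in these stretches no match overlaps another. Over the whole windows, 9 of the 30 matched members held CCGGAAG and 8.86% of all 32851 windows did. A member was counted if any of its windows matched (36 windows for 30 members), while the share is per single window, so the units differ. CCAAT was in 13 of 30 members and 37.4% of all windows, and TATAAA in 4 of 30 and 13.6%. The median member window held 27.5 CpG dinucleotides, against 7 over all windows. CCGGAAG itself holds a CpG, so its shares come from sets unlike in CpG content, and the part of that was not tested. A match is a description of the letters and not a binding site.

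The values are FPKM (fragments scaled to transcript length and sequencing depth) as deposited, with 1 table per state normalized on its own. Low values move in steps that give 1 FPKM of a 2 kb transcript a support of 25.5 to 98.5 fragments, and the thinnest value of a tested member, Thoc7 in EpiLC chromatin, rested on an estimated 160 fragments. In total RNA, 7 naive markers (Nanog and Zfp42 among them) summed to 34.0 to 38.1 FPKM in EpiLC and 899 to 924 FPKM in nESC. The 6 formative markers (Fgf5 and Otx2 among them) summed to 1107 to 1143 FPKM in EpiLC and 31.8 to 33.3 FPKM in nESC. None of 5 primitive endoderm markers averaged 1 FPKM in either state, 1 of 4 trophectoderm markers did in both, and 5 fibroblast markers summed to 8.02 to 9.85 FPKM in EpiLC and 0.411 to 7.90 FPKM in nESC. The 4 cytoplasmic markers Rplp1, Rps14, Gapdh and Actb summed to 2828 to 4334 FPKM in EpiLC chromatin and 37788 to 43662 FPKM in EpiLC cytoplasm, and to 2429 to 3372 FPKM in nESC chromatin and 52663 to 61731 FPKM in nESC cytoplasm. The 4 nuclear RNAs Malat1, Neat1, Kcnq1ot1 and Meg3 summed to 4176 to 6235 FPKM in EpiLC chromatin and 209.7 to 391 FPKM in EpiLC cytoplasm, and to 4827 to 5931 FPKM in nESC chromatin and 188 to 202 FPKM in nESC cytoplasm. In nucleoplasm they summed to 1725 to 1961 FPKM in EpiLC but to 184 to 4000 FPKM in nESC, so the nESC nucleoplasm libraries differed widely in these RNAs. Replicates 3 of EpiLC chromatin and EpiLC cytoplasm were taken to stand apart from the other libraries of their groups, and the EpiLC results were refitted without them. Their FPKM sums were 504959 in chromatin, against 448385 and 432706 in its other libraries, and 1.56e+06 in cytoplasm, against 1.68e+06 and 1.72e+06. No other measure of their standing apart is given here. For some members, as Ranbp2, Tpr, Thoc2 and Thoc1, it was EpiLC chromatin replicate 1 that stood above the others of its group. The refit keeps that library, so it does not check those folds against it. In fits that left out that library alone, these genes kept their calls in EpiLC chromatin against cytoplasm. Without both replicates 3, members called higher and lower were 10 and 13 for EpiLC chromatin against cytoplasm, 12 and 4 for nucleoplasm against cytoplasm, 1 and 9 for chromatin against nucleoplasm and 4 and 7 for cytoplasm against total RNA.

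Two-sided limma tests on log2(FPKM + 0.5) were run within a state over all genes averaging 1 FPKM or more in its 12 libraries. A call, higher or lower, needed a 2-fold change and a p under 0.05 after Benjamini-Hochberg adjustment. The scale understates the change of low genes. Of the members, 36 were tested in each state. Nup210l, a relative of the membrane nucleoporin Nup210 known from germ cells, did not reach the minimum, with group means of 0.104 to 0.321 FPKM in EpiLC and 0.242 to 0.764 FPKM in nESC. Log2 folds are given with their SE. Groups of 3 libraries that do not overlap were common, at 82.7% of all genes in EpiLC and 85.9% in nESC for chromatin against cytoplasm.

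On the deposited scale, in both states the RNA of some pore and export genes stood far higher in chromatin than in cytoplasm and that of others far lower. In EpiLC 9 of 36 members were higher in chromatin and 13 lower, where the shares over all 12834 genes were 29.1% higher and 28.4% lower. In nESC 14 of 36 were higher and 11 lower, where 31.8% of 12592 genes were called higher and 29.7% lower. The members' median log2 fold was -0.41 in EpiLC, against 0.00 over all genes, and 0.09 in nESC, against 0.04. These counts are near the background and are no result about the members as a group; the values below give the genes at either end. Called higher in both states were 9 genes, called lower in both were 10, and none was called in opposite directions, where 25.4%, 25.2% and 0.162% of the 11704 genes tested in both states were. After each library was scaled to one sum of FPKM, which moved the median of all genes to 1.69 in EpiLC and 1.85 in nESC, every higher member kept its call, but 8 of the 13 lower members in EpiLC and 7 of the 11 in nESC lay above 0. Lower in chromatin therefore means lower relative to most genes on the deposited scale. The length and GC correction regressed 2 measures out of each library. These were the joined length of all annotated exons and the GC content of the transcript with the longest coding part. With it, 3 of the 9 higher and 7 of the 13 lower calls held in EpiLC and 8 of 14 and 5 of 11 in nESC, and 3 of the higher members in each state lay below 0. Without both EpiLC replicates 3, Nup155 was also called higher in EpiLC at 1.06. In bulk samples, fewer cells of a type and less RNA per cell cannot be told apart.

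Ranbp2 stood highest of the 36 in this comparison. It encodes the large nucleoporin of the cytoplasmic filaments (chromosome 10, 58446920 to 58494356 of GRCm38, plus strand). In EpiLC it had 147, 85.4 and 89.5 FPKM in chromatin, against 2.73, 2.62 and 4.46 FPKM in cytoplasm. In nESC it had 175, 239 and 238 FPKM in chromatin, against 1.71, 2.47 and 2.17 FPKM in cytoplasm. Every chromatin library lay far above every cytoplasm library, with a log2 fold of 4.83 ± 0.21 in EpiLC (limma adjusted p = 4.1e-10) and 6.37 ± 0.13 in nESC (adjusted p = 2.36e-13). The lowest value, in nESC cytoplasm, still rests on an estimated 210 fragments. Without both EpiLC replicates 3 its EpiLC log2 fold was 5.15, that of Tpr 3.17 and that of Thoc2 3.59. This refit keeps EpiLC chromatin replicate 1, the highest chromatin library of its group for each of these genes. Each kept its EpiLC call when that library alone was left out.

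The basket genes Tpr and Nup153 came next among pore components. Tpr, the filament protein of the basket (chromosome 1, 150392838 to 150449935), had 124, 71.4 and 64.3 FPKM in EpiLC chromatin, against 10.5, 9.51 and 13.8 FPKM in EpiLC cytoplasm. In nESC it had 126, 142 and 162 FPKM in chromatin, against 2.95, 5.14 and 7.78 FPKM in cytoplasm. The groups did not overlap in either state, with log2 folds of 2.84 ± 0.21 in EpiLC and 4.72 ± 0.22 in nESC (limma adjusted p = 6e-08 and 2.77e-10). Nup153, which binds the pore's nuclear ring and carries phenylalanine-glycine repeats, had 179.9, 145 and 106 FPKM in EpiLC chromatin, against 22.7, 23.3 and 33.4 FPKM in EpiLC cytoplasm. In nESC chromatin it had 129, 123 and 148 FPKM, against 12.2, 13.4 and 12.9 FPKM in nESC cytoplasm. Its log2 folds were 2.40 ± 0.18 in EpiLC and 3.32 ± 0.08 in nESC. Nup50, the third basket protein and a cofactor of importin alpha, did not follow them. It was lower in EpiLC chromatin, at 17.5 ± 1.16 FPKM against 47.3 ± 1.44 FPKM in cytoplasm (mean ± SD, n = 3 each), and was not called in nESC, at 25.5 ± 1.01 FPKM in chromatin against 27.8 ± 0.760 FPKM in cytoplasm.

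**Figure D1:**
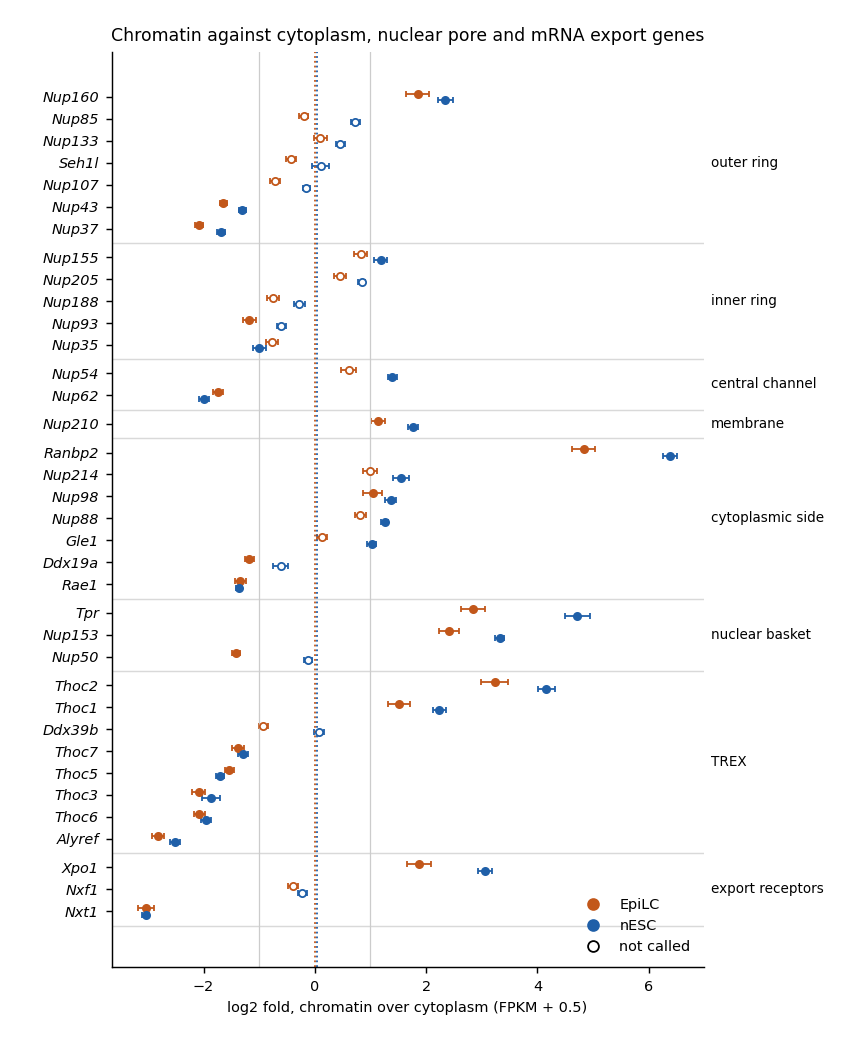
Log2 fold of chromatin over cytoplasm (horizontal axis) for the 36 tested pore and export genes by role, with EpiLC above nESC in each row. Points are limma estimates with SE, filled where called, and dotted lines are the medians of all genes, near 0 in both states. Ranbp2, Tpr and Thoc2 lie at the right with log2 folds of 4.83, 2.84 and 3.23 in EpiLC and 6.37, 4.72 and 4.16 in nESC, and Nxt1 and Alyref at the left, where 8 of the 13 lower EpiLC members and 7 of the 11 lower nESC members move above 0 once libraries are scaled to one sum.

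Among the other genes of the cytoplasmic side, Nup98, which sits on both faces of the pore, was higher in chromatin in both states, with log2 folds of 1.04 ± 0.17 in EpiLC and 1.36 ± 0.09 in nESC. Its transcripts also encode the scaffold protein Nup96. The EpiLC call was lost without chromatin replicate 1 (log2 fold 0.85) or cytoplasm replicate 2 (0.96). After the length and GC correction Nup98 lay below 0, at -0.19 in EpiLC and -0.087 in nESC, and was called in neither. Nup214 and Nup88, partners in one subcomplex, were called in nESC at 1.55 and 1.25, and had 0.99 and 0.82 in EpiLC, under the 2-fold threshold. Nup214 passed it in EpiLC without chromatin replicate 1 or 3 or cytoplasm replicate 2, at 1.01 to 1.09. Gle1 was called in nESC at 1.02 ± 0.09, a call lost without chromatin replicate 1 (0.91) or cytoplasm replicate 2 (0.999), and had 0.12 in EpiLC. Rae1, an RNA export factor that binds Nup98, was lower in chromatin in both states. It had 51.2, 64.8 and 56.0 FPKM in EpiLC chromatin, against 150.4, 153 and 133 FPKM in EpiLC cytoplasm, and a log2 fold of -1.34 there and -1.36 in nESC, which the length and GC correction moved to -0.29 and -0.26, not called. Ddx19a was lower in EpiLC at -1.18 ± 0.09 and not called in nESC at -0.61.

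The scaffold was split. In the outer ring, Nup160 was higher in chromatin, at 1.85 ± 0.21 in EpiLC and 2.35 ± 0.13 in nESC, though the EpiLC call was lost with the length and GC correction (0.79). Nup37 and Nup43, small propeller proteins of the same complex, were lower in both. Nup37 had 16.4, 17.3 and 17.2 FPKM in EpiLC chromatin, against 73.0, 76.4 and 69.4 FPKM in EpiLC cytoplasm, and 17.5, 19.2 and 18.1 FPKM in nESC chromatin, against 66.0, 58.3 and 56.8 FPKM in nESC cytoplasm. These groups did not overlap, and the log2 folds were -2.07 in EpiLC and -1.69 in nESC, with Nup43 at -1.64 and -1.30. The 4 remaining outer-ring members, Nup85, Nup133, Nup107 and Seh1l, were called in neither state and ranged from -0.72 to 0.73. In the inner ring, Nup155 was called higher in nESC at 1.19 and had 0.83 in EpiLC, but the length and GC correction turned it below 0 in both, to -1.12 in EpiLC and -0.95 in nESC (limma adjusted p = 8.63e-09 and 1.19e-08). Nup93 was called lower in EpiLC at -1.18 and had -0.60 in nESC, while Nup35 reached -1.001 in nESC, a call lost without chromatin replicate 1 or 2 or cytoplasm replicate 1 or 3 (-0.98 to -0.92). Nup205 and Nup188 were not called. Nup210, which spans the membrane, was higher in both at 1.13 in EpiLC and 1.76 in nESC. The channel genes parted, with Nup62 lower in EpiLC and nESC and its partner Nup54 higher in nESC at 1.39. Nup62 had 28.3, 23.0 and 29.0 FPKM in nESC chromatin, against 116, 98.2 and 110.1 FPKM in nESC cytoplasm, and log2 folds of -1.74 in EpiLC and -1.996 in nESC.

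On the deposited scale the TREX complex held genes far higher and genes far lower in chromatin. Thoc2 (X chromosome, 41794991 to 41920674), the scaffold subunit, had 63.5, 31.7 and 30.1 FPKM in EpiLC chromatin, against 3.27, 3.26 and 4.90 FPKM in EpiLC cytoplasm. In nESC it had 44.5, 56.9 and 65.4 FPKM in chromatin, against 2.18, 3.39 and 2.38 FPKM in cytoplasm. Its log2 fold was 3.23 ± 0.23 in EpiLC and 4.16 ± 0.15 in nESC (limma adjusted p = 4.3e-08 and 2.17e-11). EpiLC chromatin replicate 1 stood above the other chromatin libraries of its group. Thoc1 was also higher, at 1.51 ± 0.19 in EpiLC and 2.23 ± 0.12 in nESC. After the length and GC correction Thoc2 lay at -0.07 and Thoc1 at -0.63 in EpiLC, and Thoc1 at -0.089 in nESC. Neither gene was called higher in either state after it. Of the exonic bases of Thoc1 24.3% lie opposite exons of Usp14, and the use of strand in counting is not given in the sources used here, so its level is uncertain. The other 4 Thoc genes measured, Thoc3, Thoc5, Thoc6 and Thoc7, were lower in chromatin in both states, from -2.09 to -1.38 in EpiLC and -1.96 to -1.29 in nESC. Thoc3 had 30.0, 37.5 and 28.1 FPKM in EpiLC chromatin, against 128, 145 and 136 FPKM in EpiLC cytoplasm. Thoc6 had 32.2, 25.5 and 24.9 FPKM in nESC chromatin, against 111, 106 and 107 FPKM in nESC cytoplasm, and 14.6% of its exonic bases lie opposite other genes, as do 10.4% of those of Nup133 and 7.88% of those of Nup188, with the same doubt. Alyref, the adaptor that recruits Nxf1 (chromosome 11, 120592121 to 120598365), was the most abundant member in cytoplasm. It had 54.8, 54.6 and 51.4 FPKM in EpiLC chromatin, against 404, 426 and 325 FPKM in EpiLC cytoplasm, and 74.0, 60.0 and 61.3 FPKM in nESC chromatin, against 388, 365 and 365 FPKM in nESC cytoplasm. Its log2 folds were -2.82 ± 0.11 in EpiLC and -2.51 ± 0.09 in nESC. Ddx39b was not called in either state, at -0.92 in EpiLC and 0.07 in nESC.

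The 3 export receptor genes took 3 positions. Xpo1 (chromosome 11, 23256041 to 23298249) was higher in chromatin, with 164, 126 and 134 FPKM in EpiLC chromatin, against 29.6, 30.7 and 60.3 FPKM in EpiLC cytoplasm, and 164, 200.2 and 217 FPKM in nESC chromatin, against 19.7, 27.5 and 21.7 FPKM in nESC cytoplasm. Cytoplasm replicate 3 of EpiLC was about at the level of both others added together, and without it and chromatin replicate 3 the EpiLC log2 fold was 2.24, against 1.87 ± 0.21 with all libraries. Its fold in nESC was 3.05 ± 0.12. The EpiLC call was lost with the length and GC correction, at 0.06. Nxf1, the main receptor of messenger RNA, was called in neither state, with 96.4, 111 and 106 FPKM in EpiLC chromatin, against 137, 143 and 129 FPKM in EpiLC cytoplasm, and log2 folds of -0.39 in EpiLC and -0.23 in nESC, both under 2-fold. Nxt1, its small partner (chromosome 2, 148672601 to 148676027), was the lowest of all members. It had 13.6, 12.8 and 19.4 FPKM in EpiLC chromatin, against 138, 131 and 111 FPKM in EpiLC cytoplasm. In nESC it had 12.6, 14.2 and 13.2 FPKM in chromatin, against 114, 112 and 113 FPKM in cytoplasm. The log2 folds were -3.03 ± 0.14 in EpiLC and -3.04 ± 0.07 in nESC (limma adjusted p = 7.85e-10 and 4.82e-13), and Nxt1 was the member still called lower in both states after scaling to one sum.

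**Figure D2:**
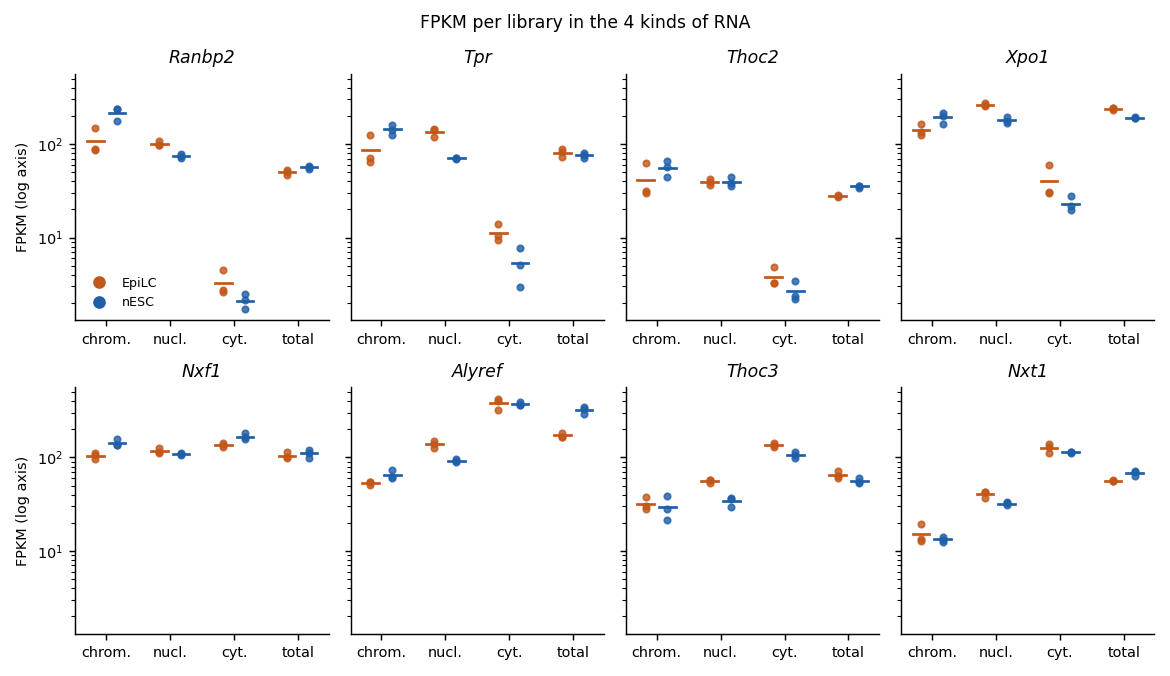
FPKM (vertical log axis) of 8 pore and export genes in chromatin, nucleoplasm, cytoplasm and total RNA, with EpiLC left of nESC. Points are the 3 libraries of a group and bars their means. Ranbp2, Tpr and Thoc2 average 3.27, 11.3 and 3.81 FPKM in EpiLC cytoplasm and 2.12, 5.29 and 2.65 FPKM in nESC cytoplasm, below all their other groups, while Alyref, Thoc3 and Nxt1 average 385, 136 and 127 FPKM in EpiLC cytoplasm, above their other EpiLC groups on the deposited scale.

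The position of a member went with the length of its transcript, a measure the rule did not use. Lengths are those of the longest coding transcript in GENCODE M21, from 937 bases for Thoc7 to 9608 for Ranbp2. The 7 members under 2 kb had a median log2 fold of -1.64 in EpiLC and -1.36 in nESC, and 6 were called lower in EpiLC and 7 in nESC, where 60.6% and 61.5% of all coding genes of that length were. The 13 of 2 to 4 kb had medians of -0.92 in EpiLC and -0.23 in nESC. The 16 of 4 kb or more had medians of 1.08 in EpiLC and 1.65 in nESC, with 9 called higher and 1 lower in EpiLC and 12 higher and 0 lower in nESC, where 48.7% of such coding genes were called higher in EpiLC and 54.7% in nESC. All coding genes of the same classes had medians of -1.42, -0.14 and 0.95 in EpiLC and -1.49, -0.10 and 1.16 in nESC. Spearman's rho between fold and length was 0.77 over the 36 members in either state, against 0.55 over 11800 coding genes in EpiLC and 0.56 over 11558 in nESC. These points share their libraries, and a FPKM is itself divided by length, so the values are a description across genes.

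Some members stood apart from their length class. Nup188, an inner-ring scaffold gene with a transcript of 5710 bases, had log2 folds of -0.75 ± 0.10 in EpiLC and -0.28 ± 0.09 in nESC. Nup50, at 4766 bases, was the long member called lower in EpiLC. Alyref, at 3527 bases, lay below the class median of all coding genes by over 2 log2 units in both states. The length and GC correction used the joined length of all annotated exons, not this transcript length. For Thoc7 these are 6561 and 937 bases. After the correction, 3 members stayed higher in EpiLC, namely Ranbp2 at 2.43, Nup153 at 1.70 and Tpr at 1.55. In nESC those 3 were at 3.76, 2.50 and 3.26. Thoc2, whose transcript is 37.5% GC, was at -0.07 in EpiLC and 0.51 in nESC after that correction and no longer called, and Thoc1 was at -0.63 and -0.09. Alyref and Nxt1 stayed lower, at -2.75 and -1.67 in EpiLC and -2.50 and -1.48 in nESC.

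**Figure D3:**
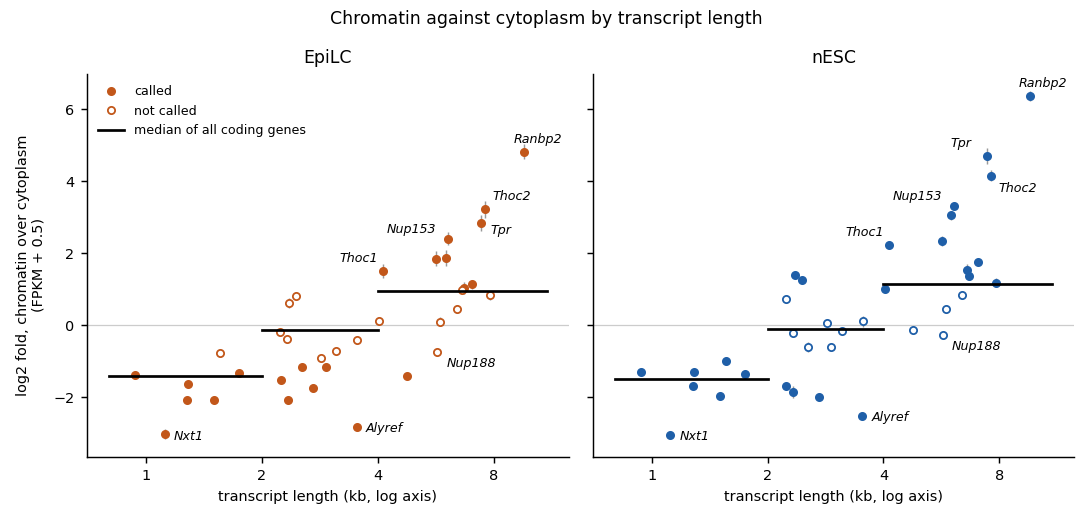
Log2 fold of chromatin over cytoplasm (vertical axis) against transcript length in kb (log axis) for 36 members, EpiLC left and nESC right. Points are limma estimates with SE, filled where called, and black lines are medians of all coding genes under 2 kb, from 2 to 4 kb and from 4 kb. Members under 2 kb lie below 0 and Ranbp2, at 9608 bases, highest, while Alyref and Nup188 lie below the line of their class; scaling to one sum moves 8 of the 13 lower EpiLC members and 7 of the 11 lower nESC members above 0.

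For nucleoplasm against cytoplasm, 10 of the 16 members of 4 kb or more were called higher in each state, where 39.8% of all coding genes of 4 kb or more were called higher in EpiLC and 41.0% in nESC. No shorter member was, where in EpiLC 5.51% of coding genes under 2 kb and 17.0% of those of 2 to 4 kb were. In nESC those shares were 5.77% and 16.3%, so few calls would be looked for among the shorter members. The 16 long members ranged from -0.62 to 4.79 in EpiLC and from -0.27 to 4.85 in nESC. Of 36 members 10 were higher in EpiLC nucleoplasm and 4 lower, where 20.1% of all genes were higher and 19.1% lower. In nESC 10 were higher and 5 lower, where 20.5% and 19.5% of all genes were. Ranbp2 had 97.0, 98.5 and 108 FPKM in EpiLC nucleoplasm and 74.6, 70.2 and 78.8 FPKM in nESC nucleoplasm, against the cytoplasm values above, with log2 folds of 4.79 ± 0.21 in EpiLC and 4.85 ± 0.13 in nESC. Tpr had 119, 147 and 142 FPKM in EpiLC nucleoplasm and 70.7, 69.7 and 71.1 FPKM in nESC nucleoplasm, with log2 folds of 3.54 and 3.71. Thoc2 had 36.7, 39.0 and 41.9 FPKM in EpiLC nucleoplasm and 38.0, 36.0 and 44.3 FPKM in nESC nucleoplasm, and was called at 3.22 and 3.68. Xpo1, with 275, 254 and 262 FPKM in EpiLC nucleoplasm and 176, 169 and 195 FPKM in nESC nucleoplasm, was higher at 2.78 and 2.95, and at 3.11 in EpiLC without cytoplasm replicate 3 and chromatin replicate 3. Without these Nup205 and Nup54 were called higher in EpiLC too, at 1.08 and 1.07, against 0.998 and 0.91 with all libraries. The other 6 called higher in EpiLC were Nup153, Nup160, Nup155, Nup210, Nup98 and Thoc1, and the same 6 were called in nESC, in each case between 1 and 2.5 on the log2 scale. Lower in both were Nxt1, Alyref and Thoc3. Nxt1 had 43.0, 42.2 and 37.2 FPKM in EpiLC nucleoplasm and 32.3, 33.0 and 31.2 FPKM in nESC nucleoplasm, with log2 folds of -1.62 and -1.80. Alyref had 128, 139 and 148 FPKM in EpiLC nucleoplasm and 89.3, 91.6 and 95.6 FPKM in nESC nucleoplasm, with -1.47 and -2.01, both far below their cytoplasm values. Thoc3 had 57.0, 53.6 and 57.2 FPKM in EpiLC nucleoplasm (-1.28) and, in nESC, 36.9, 36.1 and 29.3 FPKM in nucleoplasm against 115, 97.6 and 105 FPKM in cytoplasm (-1.63). Rae1 was called lower in EpiLC at -1.04, with 73.0, 71.1 and 66.7 FPKM in nucleoplasm. Nup62 and Thoc6 were called lower in nESC at -1.27 and -1.22, with Nup62 at 45.0, 44.8 and 43.5 FPKM in nucleoplasm. The fractions did not overlap for any of these, as for 81.2% of all genes in EpiLC and 84.9% in nESC. After scaling to one sum, which moved the median of all genes to 0.72 in EpiLC and 0.97 in nESC, all 10 higher calls held in both states, none of the 4 and 5 lower calls did, and Thoc6 in nESC lay above 0. After the length and GC correction 4 of the 10 higher and 1 of the 4 lower calls held in EpiLC and 6 of 10 and 1 of 5 in nESC, and Nup155 and Thoc1 in nESC lay just below 0, at -0.025 and -0.049.

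On the deposited scale 28 of 36 members lay below 0 for chromatin against nucleoplasm in EpiLC and 15 of 36 in nESC, and after scaling to one sum 16 and 6 did. The shares of all genes below 0 are not given here. In EpiLC 1 of 36 members was higher in chromatin and 9 were lower, where 16.0% of all genes were called higher and 16.7% lower. The members' median log2 fold was -0.64, against -0.07 over all genes. In nESC 6 were higher and 2 lower, where 17.4% and 17.3% of all genes were, with a median of 0.12 against 0.02. The 9 lower in EpiLC were Nup37, Nxt1, Nup107, Nup93, Alyref, Thoc7, Nup43, Thoc6 and Thoc5. Nup37 had 60.2, 57.4 and 58.5 FPKM in EpiLC nucleoplasm, against which its chromatin values above gave -1.76 ± 0.07. Nup107, the core of the Y complex, had 33.4, 34.4 and 29.9 FPKM in EpiLC chromatin, against 83.1, 85.8 and 92.9 FPKM in EpiLC nucleoplasm, a log2 fold of -1.41 ± 0.09. Nup93, which links the inner ring to the channel, had 34.1, 33.2 and 24.2 FPKM in EpiLC chromatin, against 79.3, 79.5 and 81.0 FPKM in EpiLC nucleoplasm, a log2 fold of -1.39 ± 0.11. All 3 genes had every chromatin library below every nucleoplasm library. Over all genes the groups did not overlap for 72.2% in EpiLC and 77.4% in nESC. Nup153 was the member higher in EpiLC chromatin, against 67.9, 69.9 and 68.3 FPKM in EpiLC nucleoplasm, at 1.02 ± 0.18, a call lost without chromatin replicate 1 (0.84) or replicate 2 (0.99996). In nESC the 6 higher were Nup153 at 1.68, against 41.2, 38.6 and 43.5 FPKM in nucleoplasm, Ranbp2 at 1.52, Nup214, Gle1, Nup85 at 1.09 and Tpr at 1.01, which was at 0.92 and not called without chromatin replicate 3. Nup214 had 50.9, 39.3 and 46.1 FPKM in nESC chromatin, against 18.1, 16.8 and 24.04 FPKM in nESC nucleoplasm (1.20 ± 0.15). Gle1 had 42.9, 34.3 and 34.1 FPKM in nESC chromatin, against 17.0, 16.8 and 15.7 FPKM in nESC nucleoplasm (1.14 ± 0.09). The 2 lower in nESC, Thoc7 and Nxt1, were also lower in EpiLC. Thoc7 had 12.4, 14.4 and 13.5 FPKM in nESC chromatin, against 35.9, 32.1 and 39.7 FPKM in nESC nucleoplasm, and log2 folds of -1.34 in EpiLC and -1.38 in nESC. After scaling to one sum, which moved the median of all genes to 0.69 in both states, none of the 9 lower calls in EpiLC and 2 in nESC held, though all 11 stayed below 0. After the length and GC correction 7 of the 9 lower calls held in EpiLC and 1 of the 2 in nESC, while the higher call in EpiLC was lost and 3 of the 6 in nESC held. The call lost in EpiLC was Nup153, at 0.96, and those in nESC were Nup214, Ranbp2 and Tpr, at 0.90, 0.78 and 0.59.

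**Figure D4:**
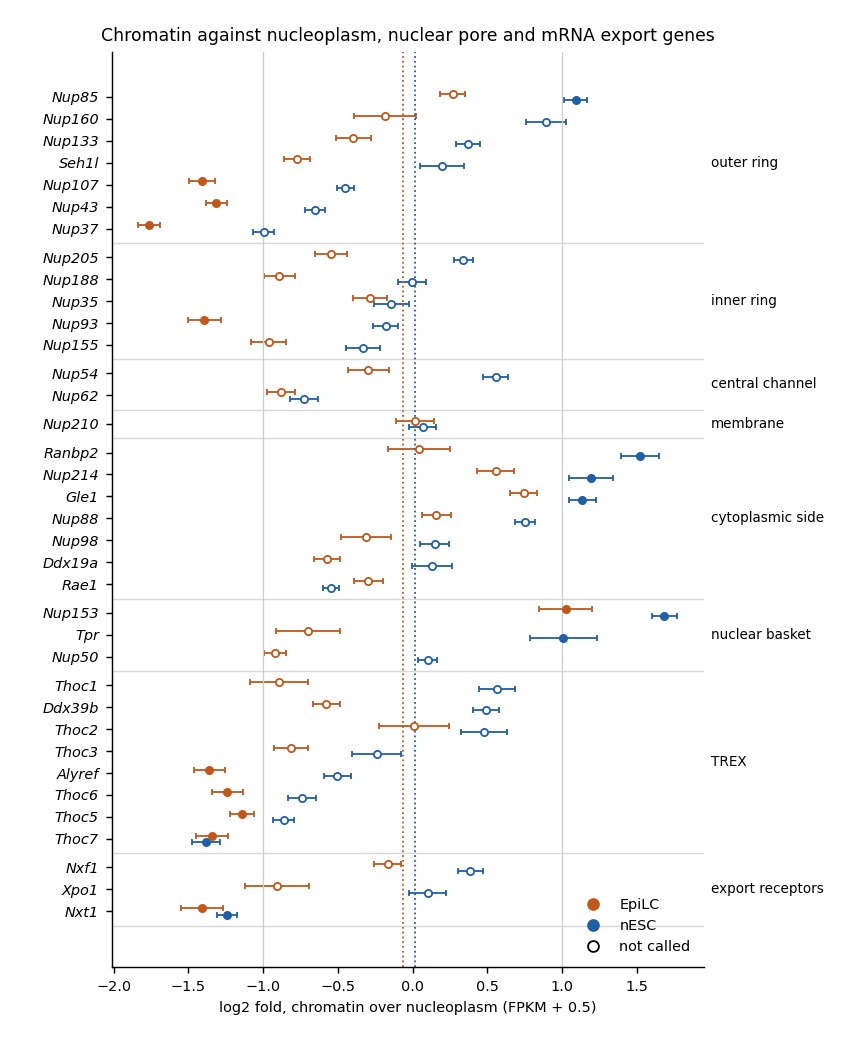
Log2 fold of chromatin over nucleoplasm (horizontal axis) for the 36 tested members by role, with EpiLC above nESC in each row. Points are limma estimates with SE, filled where called, and dotted lines are the medians of all genes, at -0.07 in EpiLC and 0.02 in nESC. The EpiLC point lies left of the nESC point for most members, as for Tpr at -0.70 in EpiLC and 1.01 in nESC, and after scaling to one sum 20 of 36 EpiLC members and 30 of 36 nESC members lie above 0. That scaling moves the median of all genes to 0.69 in both states.

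Whether the fractions differ between the states was tested as an interaction, EpiLC fold minus nESC fold, over libraries each centred on its median. For chromatin against cytoplasm 4 of 36 members were called lower and 0 higher, where 4.97% of 13422 genes were called lower and 6.24% higher. They were Tpr at -1.80 ± 0.40, Ranbp2 at -1.47 ± 0.31, Nup50 at -1.21 ± 0.14 and Xpo1 at -1.11 ± 0.32 (limma adjusted p = 0.00713, 0.00543, 9.42e-05 and 0.0245). The members' median was -0.41, against -0.02 over all genes. Of the members 31 of 36 lay below 0, and the share of all genes below 0 is not given here. Below 0 at adjusted p under 0.05 with no fold threshold were 10 of 36 members, where 12.3% of all genes were. Without both EpiLC replicates 3, Tpr was at -1.50, Ranbp2 at -1.18, Nup50 at -1.19 and Xpo1 at -0.78, the last not called, while the helicase gene Ddx39b was called at -1.004. The Xpo1 call was also lost without EpiLC chromatin replicate 2, nESC chromatin replicate 2 or 3, or nESC cytoplasm replicate 1 or 3, at limma adjusted p of 0.0520 to 0.0613. Without EpiLC cytoplasm replicate 3 alone Xpo1 was at -0.79, under 2-fold, and not called. All 4 directions were the same after scaling to one sum, but centring each library largely undoes that scaling, so it is little check on scale. Without the centring 4 members were called lower and 0 higher, with a median of -0.49.

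The same test for chromatin against nucleoplasm was an interaction added after the member counts of that comparison had been seen. Of 36 members 8 were called lower and 0 higher, where 4.40% of 13294 genes were called lower and 4.68% higher. The median over members was -0.68, against -0.08 over all genes. Below 0 were 34 of 36 members, and the share of all genes below 0 is not given here. At adjusted p under 0.05 with no fold threshold, 25 of 36 members and 17.9% of all genes were below 0. Called were the basket genes Tpr at -1.71 ± 0.27 and Nup50 at -1.02 ± 0.12, Ranbp2 at -1.48 ± 0.26, the scaffold genes Nup93 at -1.21 ± 0.16 and Nup160 at -1.07 ± 0.24, the TREX genes Thoc1 at -1.45 ± 0.22 and Ddx39b at -1.06 ± 0.15, and Xpo1 at -1.002 ± 0.19 (limma adjusted p from 0.000202 for Nup50 to 0.00652 for Nup160). Nup50, Nup160, Ddx39b and Xpo1 are near 2-fold, and the count depends on the filter. These 4 were not called among genes averaging 5 FPKM or more (-0.96 to -0.90), which left 4 members lower, while with no filter 14 were. With a pseudocount of 1, 6 were lower, without Nup50 and Xpo1. Without EpiLC chromatin replicate 3, one of the libraries taken to stand apart, 6 were lower too, with Tpr at -1.54, Ranbp2 at -1.39 and Thoc1 at -1.33. Nup50 lost its call without EpiLC chromatin replicate 1, EpiLC nucleoplasm replicate 1 or nESC chromatin replicate 2 (-0.99 to -0.98), Nup160 without EpiLC chromatin replicate 3 (-0.88) and Ddx39b without EpiLC chromatin replicate 1 (-0.99). Xpo1 lost it without any of 7 single libraries (-0.98 to -0.92), which were EpiLC chromatin replicates 2 and 3, EpiLC nucleoplasm replicate 1, and replicates 2 and 3 of nESC chromatin and 1 and 2 of nESC nucleoplasm.

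The values per library show 3 forms of this difference. In the first, chromatin lay below nucleoplasm in EpiLC and above it in nESC. For Tpr this can be read from the values given above for each fraction, where EpiLC chromatin replicate 1 alone lay within the range of EpiLC nucleoplasm. Ddx39b had 140.1, 168 and 149 FPKM in EpiLC chromatin, against 233, 225 and 223 FPKM in EpiLC nucleoplasm, and 209, 172 and 212 FPKM in nESC chromatin, against 141, 143 and 135 FPKM in nESC nucleoplasm. Thoc1 had 24.9, 16.0 and 14.8 FPKM in EpiLC chromatin, against 33.4, 32.6 and 36.0 FPKM in EpiLC nucleoplasm, and 20.0, 23.1 and 24.8 FPKM in nESC chromatin, against 14.9, 14.4 and 15.9 FPKM in nESC nucleoplasm. Nup50 had 16.9, 18.8 and 16.7 FPKM in EpiLC chromatin, against 34.7, 33.1 and 32.5 FPKM in EpiLC nucleoplasm, and 25.3, 26.6 and 24.6 FPKM in nESC chromatin, against 23.5, 24.1 and 23.6 FPKM in nESC nucleoplasm. In these 3 genes the fractions did not overlap in either state (72.2% and 77.4% of all genes did not in EpiLC and nESC), and the order was opposite in the 2 states. Those shares count either direction within a state, and the share of all genes with opposite order was not counted. The genes were picked by the interaction on these same values, so their opposite order is no separate result. In the second form, the fractions overlapped in EpiLC and stood apart in nESC. Ranbp2 is one such gene, and Nup160 had 66.4, 49.1 and 36.6 FPKM in EpiLC chromatin, against 54.5, 56.8 and 56.7 FPKM in EpiLC nucleoplasm, and 34.8, 44.9 and 45.6 FPKM in nESC chromatin, against 21.5, 21.5 and 23.6 FPKM in nESC nucleoplasm. In the third, chromatin lay far below nucleoplasm in EpiLC and near it in nESC. Xpo1 is one, with overlapping fractions in nESC. Nup93 had 31.3, 27.7 and 33.2 FPKM in nESC chromatin, against 34.5, 33.6 and 36.1 FPKM in nESC nucleoplasm, which is lower by a small margin and without overlap. These orders are on the deposited scale, on which a library is not centred, and after scaling to one sum chromatin lay above nucleoplasm in all 8 genes in nESC and, in EpiLC, in Ddx39b, Nup160, Ranbp2 and Tpr but not in the other 4.

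Both interactions use the same chromatin libraries and are not independent of each other. In the same test the cytoplasmic markers were at -1.21 for Actb, -0.65 for Gapdh, 0.39 for Rplp1 and 0.92 for Rps14, with Actb called, and the 4 summed to 2828 to 4334 FPKM in EpiLC chromatin, 11636 to 12060 FPKM in EpiLC nucleoplasm, 2429 to 3372 FPKM in nESC chromatin and 10873 to 12001 FPKM in nESC nucleoplasm. The nuclear RNAs, by contrast, summed to 184 to 4000 FPKM among the nESC nucleoplasm libraries. The part of either set of markers in the result was not tested. The direction of all 8 calls was the same after scaling to one sum and after the length and GC correction, with 7 and 6 of them still called. Xpo1 was lost in both cases and Nup160 with the correction. Centring each library largely undoes the scaling to one sum, so that setting is little check on scale. Without the centring 8 members were called lower and 0 higher, with a median of -0.68.

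EpiLC and nESC levels come from tables normalized apart and are compared here without a test. The median log2 difference, EpiLC minus nESC, over 36 members was -0.11 in chromatin, 0.57 in nucleoplasm, 0.40 in cytoplasm and -0.04 in total RNA. Over all genes the medians were 0.01, 0.12, 0.13 and 0.01. At least 2-fold higher in EpiLC were 0 members in chromatin, 4 in nucleoplasm (Seh1l, Nup160, Nup93 and Thoc1), 2 in cytoplasm (Tpr and Nup153) and 1 in total RNA (Nup214), where 12.7%, 14.7%, 14.4% and 18.2% of all genes were. Ranbp2 was the 1 member at least 2-fold higher in nESC chromatin, at -1.01, where 10.1% of all genes were. It was at -0.96 after scaling to one sum. In nucleoplasm, cytoplasm and total RNA 0 members were at least 2-fold higher in nESC, where 13.1%, 12.1% and 12.9% of all genes were. Seh1l, which joins the Y complex, averaged 60.3 ± 5.97 FPKM in EpiLC nucleoplasm and 22.5 ± 0.965 FPKM in nESC nucleoplasm (SD, n = 3 each). On the deposited scale 7 of the 36 had their highest mean in chromatin in EpiLC and 16 in nESC, where 35.7% and 37.8% of all genes did. In nucleoplasm 13 had it in EpiLC and 1 in nESC, where 18.8% and 11.4% of all genes did. After scaling to one sum, 20 in EpiLC and 27 in nESC had it in chromatin (70.6% and 68.4% of all genes), and 11 in EpiLC and 0 in nESC in nucleoplasm (13.0045% and 13.8%). Member means in total RNA ran from 17.7 FPKM for Nup210 to 239 FPKM for Xpo1 in EpiLC, and from 11.3 FPKM for Nup214 to 322 FPKM for Alyref in nESC. In total RNA Alyref averaged 172 ± 10.6 FPKM in EpiLC and 322 ± 30.6 FPKM in nESC (SD, n = 3 each).

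In cytoplasm against total RNA, Ranbp2, Tpr, Thoc2 and Xpo1 had the lowest log2 folds of the members in both states. In EpiLC 7 of 36 members were lower in cytoplasm and 3 higher, where 17.6% of all genes were called lower and 12.7% higher. In nESC 10 were lower and 1 higher, where 19.4% and 16.0% of all genes were. Ranbp2 had 52.2, 46.5 and 50.6 FPKM in EpiLC total RNA and 54.8, 58.4 and 56.8 FPKM in nESC total RNA, with log2 folds of cytoplasm over total of -3.77 ± 0.21 in EpiLC and -4.46 ± 0.13 in nESC. Tpr was at -2.80 and -3.81, Thoc2 at -2.74 and -3.52, and Xpo1 at -2.63 and -3.05. Tpr had 87.6, 72.1 and 82.4 FPKM in EpiLC total RNA and 71.0, 79.7 and 76.8 FPKM in nESC total RNA, Thoc2 28.6, 27.0 and 27.8 FPKM and 34.0, 35.7 and 35.8 FPKM, and Xpo1 243, 229 and 244 FPKM and 189.8, 197 and 189.8 FPKM. Every total library of these 4 genes lay far above every cytoplasm library of its state, and 82.2% of all genes in EpiLC and 84.1% in nESC did not overlap between these groups in one or the other direction. Thoc1, Nup160 and Nup153 were lower in both states too, and Nup155, Nup54 and Nup107 in nESC, the last at -1.01 and lost without cytoplasm replicate 1 or total replicate 2. Nxt1, Alyref and Thoc3 were higher in EpiLC cytoplasm at 1.16, 1.15 and 1.06. In EpiLC total RNA they had 55.7, 56.9 and 55.8 FPKM, 185, 167 and 166 FPKM and 60.1, 72.5 and 63.1 FPKM. Rae1 was higher in nESC cytoplasm, with 152, 154 and 155 FPKM against 75.003, 74.3 and 74.2 FPKM in nESC total RNA (1.04). After scaling to one sum, which moved the median of all genes to -0.72 in EpiLC and -0.71 in nESC, none of these 4 higher calls held and all 7 lower calls in EpiLC and 10 in nESC did. After the length and GC correction 3 of the 7 lower calls held in EpiLC and 5 of the 10 in nESC, where Nup155 lay at 0.0081, and 1 of the 3 higher calls held in EpiLC and 0 of 1 in nESC. Thoc2 in EpiLC was among those lost, at -0.46. Without cytoplasm replicate 3 and chromatin replicate 3, Thoc6 was also called higher in EpiLC, at 1.09.

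A list of 53 further transport genes (importins, exportins, other export factors and pore-associated proteins) gave 9 higher and 17 lower of 52 tested in EpiLC for chromatin against cytoplasm, and 14 higher and 13 lower of 51 in nESC. The shares over all genes were 29.1% higher and 28.4% lower in EpiLC and 31.8% and 29.7% in nESC. The list had a median log2 fold of -0.49 in EpiLC, against -0.0008 over all genes, and 0.05 in nESC, against 0.04. The highest were the importins Kpna3 and Ipo7 and the pore assembly factor Ahctf1, at 2.52, 2.43 and 2.42 in EpiLC and 2.63, 2.77 and 3.28 in nESC. The lowest were Ran, the GTPase that gives transport its direction, its binding protein Ranbp1, and Nutf2, which imports Ran, at -2.93, -2.67 and -2.66 in EpiLC and -2.58, -2.62 and -2.62 in nESC. In the interaction of chromatin with nucleoplasm 7 of 52 were lower and 0 higher, where 4.40% and 4.68% of all genes were, with a median of -0.65. In that of chromatin with cytoplasm 3 of 51 were lower and 1 higher, where 4.97% and 6.24% of all genes were, with a median of -0.36. The 3 lower were Eny2 at -1.30, Srsf3 at -1.09 and Xpo6 at -1.09, and the 1 higher was Nxt2, a relative of Nxt1, at 1.31 (limma adjusted p = 0.00253). Nupl1 and Nupl2, older symbols of the channel gene Nup58 and of the cytoplasmic-side gene Nup42, fall outside the rule. For chromatin against cytoplasm they were called in neither state, at -0.14 and 0.81 in EpiLC and 0.38 and -0.21 in nESC. Nupl2 was called higher in the interaction of chromatin with cytoplasm, at 1.09 ± 0.23 (limma adjusted p = 0.00525), and lay above 0 in that of chromatin with nucleoplasm, at 0.84 (adjusted p = 0.0110), under 2-fold, which is the opposite direction to the members called. Nupl1 was called in neither interaction (-0.44 and -0.39) and was lower in nESC cytoplasm than in nESC total RNA, at -1.09.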

How the data were processed

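RNA of 4 fractions of 2 cell states was sequenced after removal of ribosomal RNA with a stranded kit, per the labels' protocols. For the deposited FPKM values the submitters' processing notes name TopHat2, Cuffnorm, mm10 and GRCm38; their versions, the annotation, library scaling and strand use were not given in the sources used here. Each of 2 tables holds 29759 genes and 12 libraries. From the deposited values log2(FPKM + 0.5) was taken, genes averaging 1 FPKM or more over a state's 12 libraries were kept, and limma 3.58.1 (R 4.3.3; trended eBayes, 1 fit per state over its 4 groups) gave two-sided p-values, adjusted by Benjamini-Hochberg over all genes. The script was tested on simulated data. The interactions used the 12 libraries of the fractions compared in both states, each centred on its median, so they differ slightly from the EpiLC fold minus the nESC fold. Depth was estimated from steps between low values of 1276 genes of 3000 to 10000 bp; 89.7% to 95.3% of low values per library lay within 10% of a whole number of fragments, and depth limits precision for counting error only. Lengths, GC content, coordinates and overlaps came from GENCODE M21, and promoters from RefSeq (GRCm38.p6). Tables were handled with Python 3.11.15 and pandas 2.3.3. The members and lists were chosen with earlier results of these data known. Every member may be named; values in every library are given for the 4 highest and 4 lowest called members of a comparison and all called in an interaction, and from the further transport genes the 3 highest and 3 lowest are named. Same-numbered replicates were not treated as pairs: the labels give no shared source, and correlations of their deviations ran from -0.219 to 0.177 over 18 pairs of libraries in EpiLC and from -0.133 to 0.153 over 18 in nESC. Alternatives were the pseudocount, filter, scaling, centring, variance trend, isolated zeros as missing (15 in all genes, 0 in members), a length and GC correction, the samples in the fit, the replicate block and leaving out libraries.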

Additional observations from a re-analysis of the deposited data

Results flagged for a closer look

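The fraction pattern of several members differed between the states by a test of the difference itself (limma, EpiLC fold minus nESC fold, adjusted over all genes). For chromatin against cytoplasm the difference on the log2 scale was -1.80 for Tpr, -1.47 for Ranbp2, -1.21 for Nup50 and -1.11 for Xpo1, where 4.97% of all genes were called lower. For chromatin against nucleoplasm it was -1.71 for Tpr, -1.48 for Ranbp2, -1.45 for Thoc1, -1.21 for Nup93, -1.07 for Nup160, -1.06 for Ddx39b, -1.02 for Nup50 and -1.002 for Xpo1, where 4.40% of all genes were called lower. The 52 further transport genes tested had a median of -0.65 there, against -0.68 for the members. Among genes averaging 5 FPKM or more, Nup50, Nup160, Ddx39b and Xpo1 were not called. Xpo1 lost each of its calls when certain single libraries were left out. Both sets rest on the same 6 chromatin libraries, and the second comparison was chosen after its member counts had been seen.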

How the results depend on the processing

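The tables of the states were normalized separately, nothing shows the replicates to be separate cultures, and the thinnest member value rests on an estimated 160 fragments, so the p-values cover the spread between these libraries only. Over members and settings, 8388 values were recomputed, of which 8090 kept direction and side of the threshold, 133 lost it, 124 gained it and 41 changed direction with a call in either fit. These 41 all arose under scaling to one sum, whose construction moves the median of all genes, or under the length and GC correction, where the cause was not tested.

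Scaled to one sum, members higher and lower were 22 and 1 for EpiLC chromatin against cytoplasm, 25 and 1 for nESC, 19 and 0 for EpiLC nucleoplasm against cytoplasm, 20 and 0 for nESC, 4 and 0 for EpiLC chromatin against nucleoplasm, 15 and 0 for nESC, 0 and 18 for EpiLC cytoplasm against total, and 0 and 22 for nESC. The median log2 fold over members became 1.42 for EpiLC chromatin against cytoplasm, 0.15 for EpiLC chromatin against nucleoplasm, -0.89 for EpiLC cytoplasm against total, 1.20 for EpiLC nucleoplasm against cytoplasm, 2.04 for nESC chromatin against cytoplasm, 0.81 for nESC chromatin against nucleoplasm, -1.27 for nESC cytoplasm against total and 1.12 for nESC nucleoplasm against cytoplasm. Turned upward in chromatin against cytoplasm were, in EpiLC, Ddx19a (0.61), Nup107 (1.101), Nup188 (1.07), Nup35 (1.05), Nup43 (0.19), Nup50 (0.40), Nup62 (0.087), Nup85 (1.63), Nup93 (0.65), Nxf1 (1.45), Rae1 (0.49), Seh1l (1.39), Thoc5 (0.28) and Thoc7 (0.41); in nESC, Ddx19a (1.30), Nup107 (1.80), Nup188 (1.68), Nup35 (0.95), Nup37 (0.25), Nup43 (0.65), Nup50 (1.81), Nup93 (1.34), Nxf1 (1.74), Rae1 (0.60), Thoc3 (0.088), Thoc5 (0.24) and Thoc7 (0.63); and in nESC nucleoplasm against cytoplasm, Gle1 (1.106), Nup50 (1.015), Seh1l (1.14) and Thoc6 (0.041).

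With the length and GC correction, members higher and lower were 3 and 9 for EpiLC chromatin against cytoplasm, 9 and 5 for nESC, 4 and 2 for EpiLC nucleoplasm against cytoplasm (3082 genes called), 6 and 3 for nESC (3115 genes), 0 higher for EpiLC chromatin against nucleoplasm, 3 and 1 for nESC, 1 and 3 for EpiLC cytoplasm against total (1915 genes), and 0 and 5 for nESC (2249 genes). The median over members became -0.088 for nESC chromatin against cytoplasm, -0.021 for nESC chromatin against nucleoplasm and -0.14 for nESC cytoplasm against total. Changed direction under it, in chromatin against cytoplasm, Nup155 (-1.12), Nup98 (-0.19), Thoc1 (-0.63) and Thoc2 (-0.074) in EpiLC and Nup155 (-0.95), Nup98 (-0.087) and Thoc1 (-0.089) in nESC, and in nESC Nup155 (-0.025) and Thoc1 (-0.049) in nucleoplasm against cytoplasm and Nup155 (0.0081) in cytoplasm against total.

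Centred on the median, members higher were 6 in EpiLC and 3 in nESC cytoplasm against total, members lower were 8 in nESC nucleoplasm against cytoplasm, and medians became -0.0032 for EpiLC nucleoplasm against cytoplasm, -0.17 for nESC chromatin against cytoplasm, -0.17 for nESC cytoplasm against total and -0.33 for nESC nucleoplasm against cytoplasm. With a mean of at least 5 FPKM the interactions held 838 genes for chromatin with cytoplasm, and 613 genes and 4 members lower for chromatin with nucleoplasm; with no filter 14 members were lower for chromatin with nucleoplasm. Pseudocounts of 0.1 and 1, no trend, isolated zeros as missing and only the 2 fractions compared moved no count of members by over 1.5 times.

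Leaving out 1 library at a time gave 9 to 10 higher and 13 lower for EpiLC chromatin against cytoplasm, 0 to 1 higher and 9 to 12 lower for EpiLC chromatin against nucleoplasm, 3 to 4 higher and 7 lower for EpiLC cytoplasm against total, 0 higher and 3 to 6 lower for the interaction of chromatin against cytoplasm, 0 higher and 6 to 9 lower for the interaction of chromatin against nucleoplasm, 10 to 12 higher and 4 lower for EpiLC nucleoplasm against cytoplasm, 13 to 14 higher and 10 to 11 lower for nESC chromatin against cytoplasm, 5 to 7 higher and 2 to 3 lower for nESC chromatin against nucleoplasm, 1 to 2 higher and 9 to 10 lower for nESC cytoplasm against total and 10 higher and 5 lower for nESC nucleoplasm against cytoplasm. Other members crossed the 2-fold threshold without 1 library, as Nup155 (-1.04), Thoc1 (-1.12) and Xpo1 (-1.02) in EpiLC chromatin against nucleoplasm without chromatin replicate 1.

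With the replicate number as a block, the counts of members called were the same in all 10 comparisons, for example 9 higher and 13 lower in EpiLC chromatin against cytoplasm. Genes called in the interactions were 1406 for cytoplasm and 1179 for nucleoplasm, against 1504 and 1207 without the block. The labels give the numbers no shared source, and the check of their deviations found no pairing.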
